A study of Mus musculus with 65 samples.

Results

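The genes C1qa, C1qb and C1qc encode the A, B and C chains of complement C1q, and each was followed through 1 feature, so that 3 of the 8448 features of the array were described. The features were taken by name, as every feature whose only gene symbol was C1qa, C1qb or C1qc. These 3 genes were chosen with earlier results of these data known. Spinal cord RNA of 65 C57BL/6 mice had been hybridized to filter B of the NIA mouse 17K cDNA array, a nylon filter on which cDNA clones are spotted, and each mouse had its own array. Feed was freely available (ad libitum, AL) to 40 mice, namely 10 juveniles aged 17 to 44 days and, at each of the ages 6, 16 and 24 months, 10 adults. The 25 mice on caloric restriction (CR), a stepwise reduced ration started in young adult life, numbered 8 at 6 months, 10 at 16 and 7 at 24. Every AL group had 5 males and 5 females, and the CR groups had 3 males and 5 females, 5 and 5, and 3 and 4, in the order of age. No juvenile was on CR. Ages were 169 to 194 days in the groups of 6 months, 472 to 499 days in those of 16 months and 673 to 743 days in those of 24 months.

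C1q is built from the A, B and C chains, each with a collagen-like stalk and a globular head, and it is the recognition subunit of the C1 complex. When the heads bind immune complexes, dying cells or certain surfaces, the proteases C1r and C1s of the complex start the classical complement pathway. In the central nervous system C1q is made mainly by microglia, and it tags synapses for removal during development and accumulates in ageing tissue.

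The 3 genes lie side by side on mouse chromosome 4 in the order C1qb, C1qc and C1qa, between Gm31536 and Epha8 (RefSeq, GRCm38.p6). The promoters are shown because the 3 genes share a locus. RefSeq promoter windows of 300 bases, from 250 before to 50 after the annotated start, were at hand for 2 of the 3 genes (GRCm38.p6, both on the minus strand), and C1qa had no entry. The C1qb window is chr4:136886151-136886450 and the C1qc window is chr4:136892865-136893164. Capitals mark GAGGAA, the core bound by PU.1 and other ETS factors of myeloid cells, and TGCTGA, a core bound by Maf factors, each searched on both strands (TTCCTC and TCAGCA are their reverse complements).
C1qb: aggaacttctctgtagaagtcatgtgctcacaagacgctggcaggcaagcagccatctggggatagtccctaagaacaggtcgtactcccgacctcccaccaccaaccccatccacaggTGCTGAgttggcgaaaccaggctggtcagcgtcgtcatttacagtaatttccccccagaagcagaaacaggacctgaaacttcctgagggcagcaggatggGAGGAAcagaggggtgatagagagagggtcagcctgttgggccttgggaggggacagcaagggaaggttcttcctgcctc
C1qc: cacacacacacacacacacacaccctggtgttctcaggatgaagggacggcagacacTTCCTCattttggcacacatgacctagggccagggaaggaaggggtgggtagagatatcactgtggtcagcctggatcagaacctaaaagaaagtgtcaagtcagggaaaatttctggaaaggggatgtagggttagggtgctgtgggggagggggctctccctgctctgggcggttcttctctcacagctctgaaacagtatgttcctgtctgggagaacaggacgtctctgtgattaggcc
The C1qb window held GAGGAA from base -30 and TGCTGA from base -131 relative to the start, and the C1qc window held TTCCTC from base -193 and no TGCTGA. Of the 32851 mouse promoter windows of this length, 28.3% held GAGGAA and 19.5% held TGCTGA on either strand. These matches describe letters and not bound sites.

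Expression is given as a Z score, in which 0 stands for the average feature on the same array and 1 for the SD over its features. Differences are in these units and are not folds. Over all mice C1qb had a mean Z score of 0.437, above the means of 68.5% of the features. C1qc had a mean of 0.349, above those of 65.1%. C1qa had a mean of -0.666 and stood above only 23.4% of the features. The scores do not give transcript abundance per length, so the levels of the 3 chains were not set against each other. In whole tissue, more microglia and more C1q RNA in each microglial cell cannot be told apart.

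The arrays formed 2 sets, for which no label gives a name. Once arrays 31, 32 and 33 were left aside, which stood farthest from the median array, the first principal component (36.0% of the variance) lay between -11.4 and -2.07 in 41 arrays and between 8.59 and 19.4 in 21 arrays. These are called the first and the second set here. The second set held 1 AL mouse of 6 months and no CR mouse of 6 months, but 6 AL and 3 CR mice of 24 months, so age and set overlap in part. The 3 arrays that stand apart were all of 6 months, an AL male (array 33), a CR male and a CR female. By their numbers they lie among arrays of the second set, and they were counted to it wherever all 65 mice were kept. A set-adjusted difference, in what follows, comes from a fit with the set as a covariate and without these 3 arrays. The features were further assigned here to 22 positions, counted through again and again along the feature number. These positions were inferred and are not locations given by a label. C1qa sat at position 13, C1qb at 15 and C1qc at 7.

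C1qa was lowest in young mice and highest in old mice on both diets. In AL mice its Z score ranged from -0.93 to -0.7 in juveniles (median -0.805, mean -0.803 ± 0.0646, SD, n = 10). At 6 months it ranged from -1.33 to -0.62 (median -0.8, mean -0.816 ± 0.205, n = 10). The lowest of these values, -1.33, came from array 33. At 16 months the range was -0.83 to -0.25 (median -0.55, mean -0.551 ± 0.15, n = 10), and at 24 months it was -0.76 to -0.39 (median -0.48, mean -0.53 ± 0.133, n = 10). The groups of 6 and 24 months overlapped, with 7 of 10 old mice above the highest young mouse and all 10 above the young mean. Under CR the range was -1.04 to -0.63 at 6 months (median -0.76, mean -0.77 ± 0.121, n = 8). It was -0.8 to -0.51 at 16 months (median -0.645, mean -0.658 ± 0.105, n = 10) and -0.67 to -0.38 at 24 months (median -0.48, mean -0.511 ± 0.102, n = 7). Of the 7 old CR mice, 6 lay above the highest young CR mouse.

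**Figure D1:**
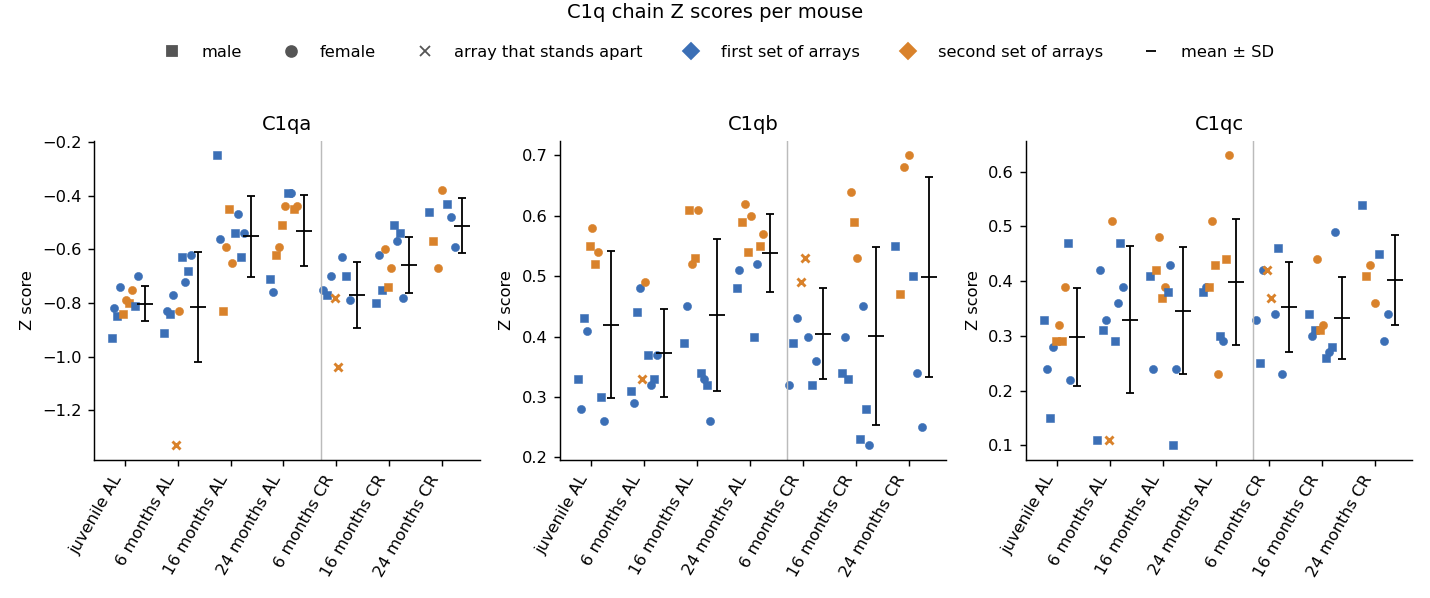
Z scores of C1qa, C1qb and C1qc in each mouse, by stage and diet. Squares are males and circles females, crosses are the 3 arrays that stand apart, colours are the 2 sets of arrays, and bars give the group mean ± SD. C1qa is higher at 24 months than at 6 months on both diets. With the crosses left aside, the C1qb values of the second set lie above those of the first in each group that holds both, except the CR group of 24 months.

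From 6 to 24 months in AL mice, C1qa rose by 0.286 Z (SE 0.0619, 95% confidence interval 0.162 to 0.41, limma adjusted p = 0.0414). Its mean over the 2 groups was -0.673. The methods of the study drop genes with a mean below 0, to avoid spurious calls at low expression against background. In this comparison 0.071% of the features passed the adjusted threshold of 0.05 (6 of 8448, all of them rises), and C1qa was the only C1q chain among them. The set-adjusted difference was 0.244 (95% confidence interval 0.134 to 0.355), and its adjusted p of 0.0609 did not pass. Without array 33 alone, the difference was 0.23 (adjusted p = 0.148). In the 20 fits that each left out 1 mouse of these groups the difference stayed between 0.23 and 0.317 and passed in 6. The sizes within the 2 sets were 0.188 (adjusted p = 0.807) in the first and 0.345 (adjusted p = 1.0) in the second, where 1 AL mouse represented 6 months.

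In CR mice the C1qa difference from 6 to 24 months was 0.258 (SE 0.0731, 95% confidence interval 0.111 to 0.404, adjusted p = 0.459), and 0.0237% of the features passed there. Although only the AL difference passed the test, the difference between the diets was -0.0283 (95% confidence interval -0.22 to 0.164, adjusted p = 0.999), an interval wide enough for either diet to have the larger change. Averaged over both diets, a contrast added after the data were seen, C1qa rose by 0.272 (SE 0.0479, limma adjusted p = 0.00084), and all 17 old mice lay above the mean of the 18 young mice. Over both diets 0.13% of the features passed. The set-adjusted rise was 0.237 (adjusted p = 0.00309, with 0.0947% of features called). In the 35 fits that left out 1 mouse without set adjustment, C1qa rose each time, by 0.244 to 0.287. Within the first set alone the difference was 0.211 (adjusted p = 0.0982).

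The steps within this span are given for each diet, and their difference between the diets was not tested. In AL mice the C1qa difference was 0.265 from 6 to 16 months (SE 0.0619, adjusted p = 0.084; 0.0237% of features passed) and 0.021 from 16 to 24 months (95% confidence interval -0.103 to 0.145). With the set as a covariate and all 65 mice kept, array 33 counted to the second set, the earlier AL step was 0.281 and passed (adjusted p = 0.0176), and the set-adjusted value of 0.217 did not (adjusted p = 0.159). In CR mice the differences were 0.108 from 6 to 16 months and 0.15 from 16 to 24 months (95% confidence interval 0.0121 to 0.287, adjusted p = 0.821). Averaged over both diets, the step from 6 to 16 months was 0.187 (SE 0.0455, adjusted p = 0.0994), where 0.0829% of the features passed. No feature on the array passed in any of the steps from 16 to 24 months on either diet, by limma, and 168 AL and 436 CR features had an unadjusted p under 0.05. From the juvenile stage to 6 months in AL mice C1qa differed by -0.013 (95% confidence interval -0.137 to 0.111), while 0.13% of the features passed.

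**Figure D2:**
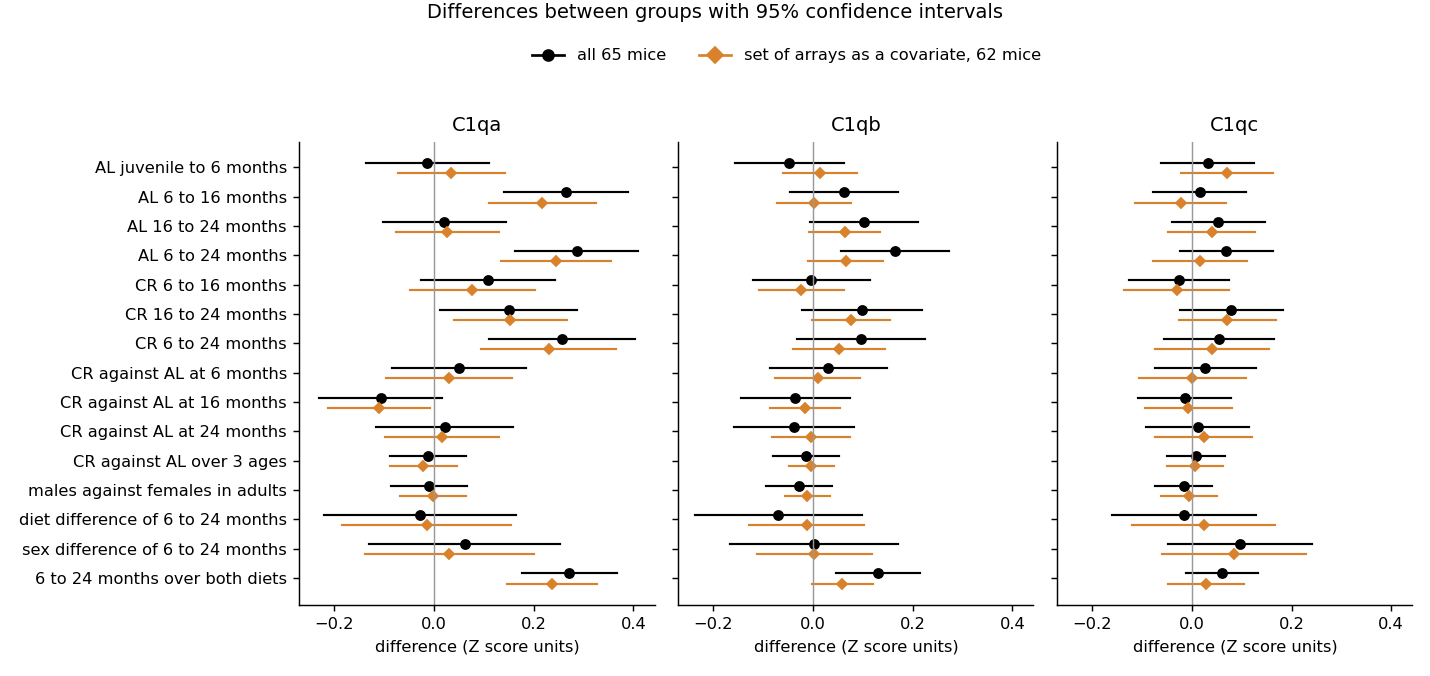
Differences in Z score between groups for each C1q chain, with 95% confidence intervals. Black circles are the fit of all 65 mice and orange diamonds the fit of 62 mice with the set of arrays as a covariate. The C1qa intervals from 6 to 24 months (AL, CR and both diets) lie above 0 in both fits, and the C1qb interval in AL mice reaches 0 once the set is in the fit (-0.0102 to 0.141).

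C1qb also had its highest means at 24 months, but its values followed the set of arrays. In AL mice its Z score ranged from 0.26 to 0.58 in juveniles (median 0.42, mean 0.42 ± 0.122, SD, n = 10) and from 0.29 to 0.49 at 6 months (median 0.35, mean 0.373 ± 0.0723, n = 10). It ranged from 0.26 to 0.61 at 16 months (median 0.42, mean 0.436 ± 0.126, n = 10) and from 0.4 to 0.62 at 24 months (median 0.545, mean 0.538 ± 0.0649, n = 10). The groups of 6 and 24 months overlapped between 0.4 and 0.49, and 8 of 10 old mice lay above the highest young mouse. Under CR it ranged from 0.32 to 0.53 at 6 months (median 0.395, mean 0.405 ± 0.0758, n = 8), from 0.22 to 0.64 at 16 months (median 0.37, mean 0.401 ± 0.148, n = 10) and from 0.25 to 0.7 at 24 months (median 0.5, mean 0.499 ± 0.165, n = 7). The spread of the CR group of 24 months covered almost the whole range of the feature.

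The C1qb difference from 6 to 24 months was 0.165 in AL mice (SE 0.0541, 95% confidence interval 0.0565 to 0.274, limma adjusted p = 0.328) and 0.0956 in CR mice (adjusted p = 0.714). Over both diets it was 0.13 (adjusted p = 0.109). Set-adjusted, these were 0.0655, 0.0531 and 0.0593, and none passed. The second set was higher than the first by 0.193 for C1qb (SE 0.0228, adjusted p = 2.44e-10) and by 0.0671 for C1qc (SE 0.0284, adjusted p = 0.0483), and for C1qa it differed by -0.0299 (SE 0.0334, adjusted p = 0.482). Between the sets 45.8% of all features passed. The sets were found from the scores of the features other than the C1q chains, so many such differences were fixed in advance. C1qb and C1qc varied across mice with near features used to find the sets, so their p-values are no independent tests of the sets. In an alternative added after the data were seen, each value was reduced by the mean deviation of 16 near features. The difference between the sets was then 0.0796 for C1qb, 0.00413 for C1qc and 0.00403 for C1qa. The mean of C1qb was 0.367 over the 41 arrays of the first set (0.22 to 0.55) and 0.573 over the 21 arrays of the second (0.47 to 0.7). Within the first set C1qb was 0.364 at 6 months in AL mice (n = 8) and 0.478 at 24 months (n = 4).

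**Figure D3:**
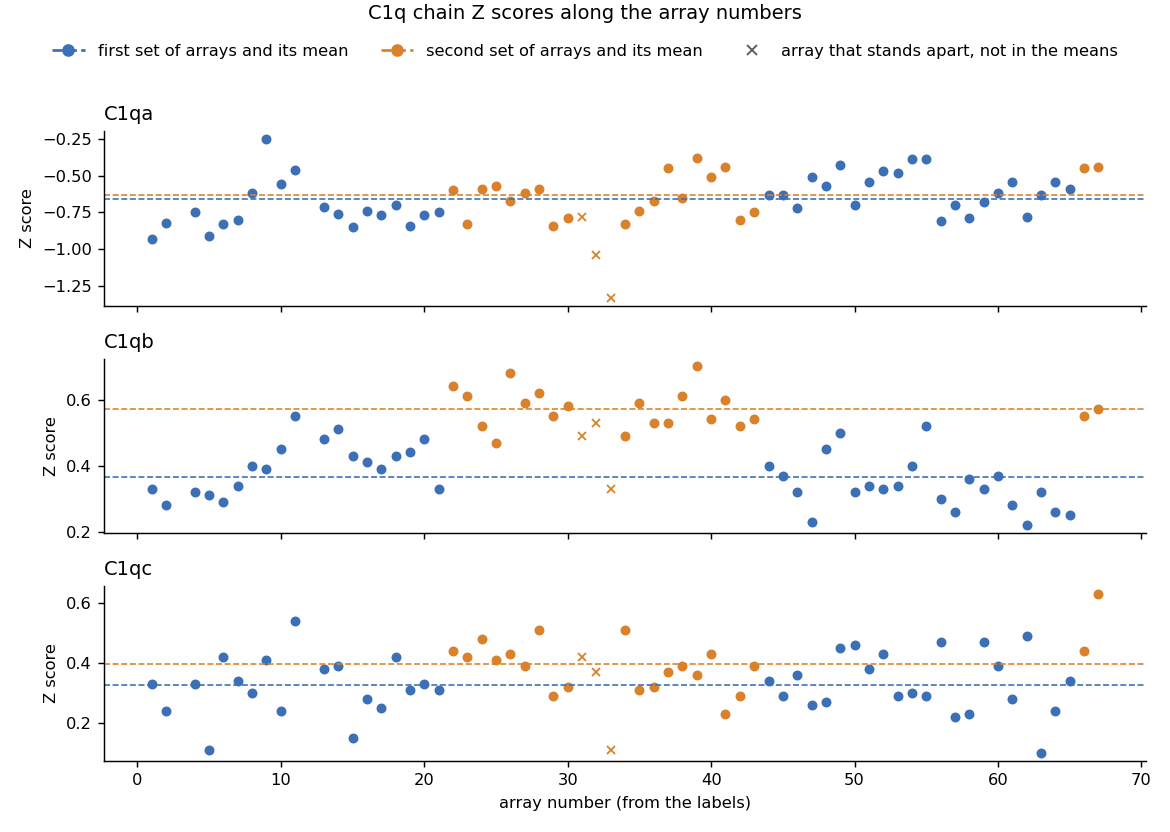
Z scores of the C1q chains against the array number that the labels give. Colours are the 2 sets of arrays, dashed lines their means without the 3 arrays that stand apart (crosses). C1qb steps from 0.367 to 0.573 between the sets, C1qc from 0.328 to 0.398, and C1qa stays near -0.658 and -0.629.

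C1qc moved least. Its Z score in AL mice ranged from 0.15 to 0.47 in juveniles (median 0.29, mean 0.298 ± 0.089, SD, n = 10), from 0.11 to 0.51 at 6 months (median 0.345, mean 0.33 ± 0.135, n = 10), from 0.1 to 0.48 at 16 months (median 0.385, mean 0.346 ± 0.116, n = 10) and from 0.23 to 0.63 at 24 months (median 0.39, mean 0.399 ± 0.115, n = 10). Under CR the ranges were 0.23 to 0.46 at 6 months (mean 0.353 ± 0.0821, n = 8), 0.26 to 0.49 at 16 months (mean 0.332 ± 0.075, n = 10) and 0.29 to 0.54 at 24 months (mean 0.403 ± 0.082, n = 7). All groups overlapped. The difference from 6 to 24 months was 0.069 in AL mice (95% confidence interval -0.0243 to 0.162, limma adjusted p = 0.513), 0.0535 in CR mice (adjusted p = 0.854) and 0.0613 over both diets (adjusted p = 0.346). Set-adjusted, these were 0.0169, 0.0404 and 0.0286, and none passed.

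When the 7 stage and diet groups were put in order of their means, the 2 groups of 24 months were the highest for each of the 3 chains. The lowest was the AL group of 6 months for C1qa and C1qb and the juvenile group for C1qc. In each order, every gap between neighbouring groups was smaller than the larger of their SDs, and the widest of these gaps was 0.112, between the CR groups of 6 and 16 months for C1qa. Within the sets of arrays the order was not the same. In the first set C1qa was at -0.498 in AL mice of 16 months and at -0.563 in those of 24 months. In the second set C1qb was at 0.587 in CR mice of 16 months and at 0.578 in AL mice of 24 months. C1qc in that set was at 0.415 in AL mice of 16 months and at 0.4 in CR mice of 24 months, and the single AL mouse of 6 months was at 0.51.

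No C1q chain passed the test between the diets. CR minus AL over the 3 adult ages was -0.0118 for C1qa (95% confidence interval -0.088 to 0.0644), -0.0141 for C1qb (-0.0808 to 0.0525) and 0.00839 for C1qc (-0.0489 to 0.0657), while 0.0237% of the features passed. The widest difference at a single age was that of C1qa at 16 months, where CR mice were at -0.658 and AL mice at -0.551 (difference -0.107, 95% confidence interval -0.231 to 0.017, limma adjusted p = 1.0). Set-adjusted, the C1qa difference at 16 months was -0.11 (95% confidence interval -0.213 to -0.00724), and its limma adjusted p of 0.999 did not pass. At 24 months the diets differed by 0.0217 for C1qa, -0.0384 for C1qb and 0.0118 for C1qc. No C1q chain passed the test between the sexes either. Adult males minus females gave -0.00978 for C1qa (95% confidence interval -0.086 to 0.0664), -0.0283 for C1qb (-0.095 to 0.0384) and -0.0166 for C1qc (-0.0739 to 0.0407). No feature passed that comparison by limma, and 291 had an unadjusted p under 0.05. The sex difference of the change from 6 to 24 months was 0.0617 for C1qa, 0.00208 for C1qb and 0.0975 for C1qc, and no feature of the array passed there (67 with an unadjusted p under 0.05).

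Across the 14 groups of stage, diet and sex, the means of the 3 chains ran together, with Pearson r of 0.759 for C1qa and C1qb, 0.653 for C1qa and C1qc and 0.675 for C1qb and C1qc. These values describe 14 group means that share arrays, and they are not adjusted for the set. Across single mice they did not run together. After group means and the set were removed, r over 62 mice was -0.0126 for C1qa and C1qb (Spearman's rho -0.0422), 0.0503 for C1qa and C1qc (rho -0.0228) and -0.0594 for C1qb and C1qc (rho -0.0389). The adjusted permutation p was 0.923 in each of the 6 tests, and the r without the 2 mice farthest from the median of the first-named gene was 0.00607, 0.0228 and -0.0465. Within the first set (41 mice) the values were 0.0431, 0.121 and -0.122, and within the second (21 mice) -0.134, -0.114 and 0.079.

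C1qb and C1qc varied across mice with the features numbered near them. Over the whole filter the residuals of features with adjacent numbers had a median r of 0.437, and those of features 22 numbers apart one of 0.554, falling to 0.286 at 110 apart. C1qb had an r of 0.477 with the feature before it, of 0.753 with the next, Xrn2, and of 0.699 and 0.773 with the features 22 numbers before and after it. For C1qc the r was 0.608 and 0.55 with the adjacent features and 0.534 and 0.659 at 22 apart. C1qa stood more on its own, with 0.0882 and 0.515 for the adjacent features and 0.416 and 0.142 at 22 apart. The residual SD, with the set as a covariate, was 0.115 for C1qa, 0.0755 for C1qb and 0.0968 for C1qc. After each value was reduced by the mean deviation of 16 near features, these SDs were 0.11, 0.047 and 0.0782. The median SD over all features went from 0.106 to 0.0827 with this centring, an alternative added after the data were seen. In such a fit, set-adjusted as well, C1qa rose by 0.238 from 6 to 24 months in AL mice (limma adjusted p = 0.0444). C1qb differed by 0.0516 (adjusted p = 0.665) and C1qc by 0.0507 (adjusted p = 0.791).

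**Figure D4:**
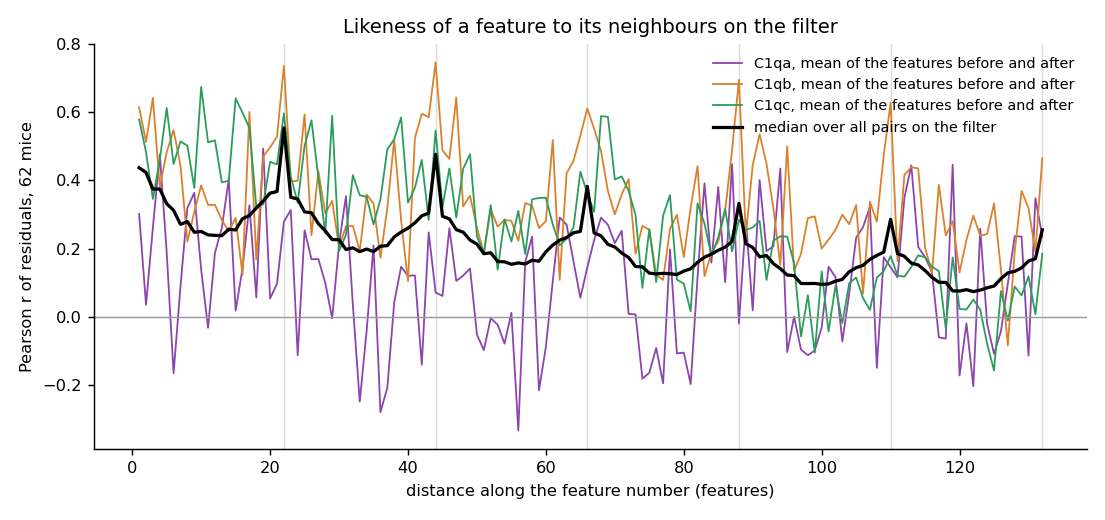
Pearson r between the residuals of 2 features against their distance along the feature number, over 62 mice. The black line is the median over all pairs at that distance and peaks at 22 (0.554) and its multiples, marked by grey lines, and the coloured lines are the means of the features before and after each C1q chain. C1qb and C1qc lie mostly at or above the median line and C1qa mostly below it.

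The features called together with C1qa in AL mice shared its position along the feature number. All 6 features called from 6 to 24 months in AL mice were at position 13, which holds 4.55% of the features. They were C1qa, 2 features of Ctsd (the lysosomal protease cathepsin D), Tbc1d8, Hadha (an enzyme of mitochondrial fatty acid oxidation) and Ganab (glucosidase II of the endoplasmic reticulum), with differences of 0.286 to 0.467. In the set-adjusted AL fit all 6 called features were at position 13 as well. Over both diets, without set adjustment, 7 of the 11 called features were at this position. The other 383 features of position 13 had a median difference of 0.05, against -0.002 over all features, and the C1qa difference was larger than those of 93.2% of them. Centring each array on the median of each position gave a C1qa difference of 0.2 in AL mice (adjusted p = 0.302) and of 0.198 over both diets (adjusted p = 0.0519), and the AL value, set-adjusted as well, was 0.242 (adjusted p = 0.137). The part of the position in the C1qa rise was not tested beyond these values. After centring on near features and set adjustment, the same 6 features were called. C1qb and C1qc shared their positions with medians of 0.049 and 0.068, so that C1qc differed from 6 to 24 months by about as much as its position.

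The genes whose 14 group means followed C1qa most closely, out of 4872 named features, were Tbc1d8 (r = 0.952), Ganab (0.946), Ctsd (0.941), AI837181 (0.916) and Hadha (0.903), all at position 13. For C1qb they were Wbp1 (0.924), Ticam1 (0.91), Rest (0.908), Metap2 (0.906) and Hs6st2 (0.901), and for C1qc they were Rpl34 (0.907), Atp5j (0.889), Rpl32 (0.883), Platr30 (0.881) and Plbd2 (0.857). By residuals over 62 mice the most alike were Itpk1 (0.709), Gnb4, Setd5, Sarnp and Brdt for C1qa, Rabl6 (0.804), Xrn2, Arhgap20, Kank3 and Tkt for C1qb, and Slc44a1 (0.744), Opa1, Atxn7l3, Zfp846 and Fras1 for C1qc. No gene was in both lists of a chain.

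Little of the rest of the complement system was named on filter B. Of 13 genes of initiation (the C1 proteases, lectins and ficolins), 2 were measured. C1ra, the C1r protease that is activated within C1, differed by -0.023 from 6 to 24 months in AL mice (SE 0.0405, limma adjusted p = 0.812), and Mbl2, a mannose-binding lectin, by -0.02 (adjusted p = 0.877). No feature was named C1s, C2, C3 or C4, and none of the 16 later components was named. Of 17 regulators 4 were measured, and none passed. Serping1, the C1 inhibitor, differed by -0.055 (SE 0.0616, adjusted p = 0.696), Cfi, the protease factor I, by -0.063 (adjusted p = 0.641) and Clu, clusterin, by 0.156 (adjusted p = 0.521). Of 15 receptors 3 genes were measured through 4 features, and none passed. Cd93, once described as a C1q receptor, differed by 0.082 (adjusted p = 0.523), C3ar1, the C3a receptor, by -0.046 (adjusted p = 0.73), and the 2 features of Lrp1, a scavenger receptor, by 0.183 and -0.033. Of 26 other genes with a C1q domain, Col8a2 (0.053) and Emilin1 (-0.001) were measured and did not pass. The medians of the initiation, regulator and receptor lists were -0.0215, -0.013 and 0.0245, beside -0.002 for all features.

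Of 42 microglia markers 9 were named on the filter through 10 features, and Aif1, Csf1r, P2ry12 and Tmem119 were not, so that the cell type behind the C1q signal could not be checked against its defining markers. From 6 to 24 months in AL mice the 2 Ctsd features rose, by 0.429 (SE 0.0941, limma adjusted p = 0.0414) and 0.459 (SE 0.0955, adjusted p = 0.0353), and the other 8 did not pass. Among these were Cd63, a tetraspanin of late endosomes, at 0.12 (adjusted p = 0.33), Cd9, also a tetraspanin, at 0.145 (adjusted p = 0.341) and Grn, the lysosomal progranulin, at 0.123 (adjusted p = 0.388). The Fc receptor genes Fcgr3 and Fcgr1 were at 0.102 and 0.054, Selplg, the ligand of P-selectin, at 0.043, and Rgs10, a regulator of G protein signalling, at -0.023. The remaining marker, Fcer1g, the signalling chain of Fc receptors, was at -0.033 and is named outside the naming rule. Altogether 8 of the 10 features were higher, with a median of 0.111 against -0.002 over all features, and set-adjusted the count was again 8, the Ctsd features rose again, and the median was 0.0874. Both Ctsd features are at position 13, and centred on positions without set adjustment no feature of the array passed in this comparison. With set adjustment as well, 6 features of the array passed. The mean level of the 10 markers ranged from -0.574 to -0.025 at 6 months (median -0.0995) and from -0.064 to 0.134 at 24 months (median -0.0095) in AL mice. Under CR it ranged from -0.392 to -0.022 (median -0.0865) and from -0.046 to 0.057 (median -0.019). The groups overlapped, and the part of the marker level in the C1qa rise was not tested.

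**Figure D5:**
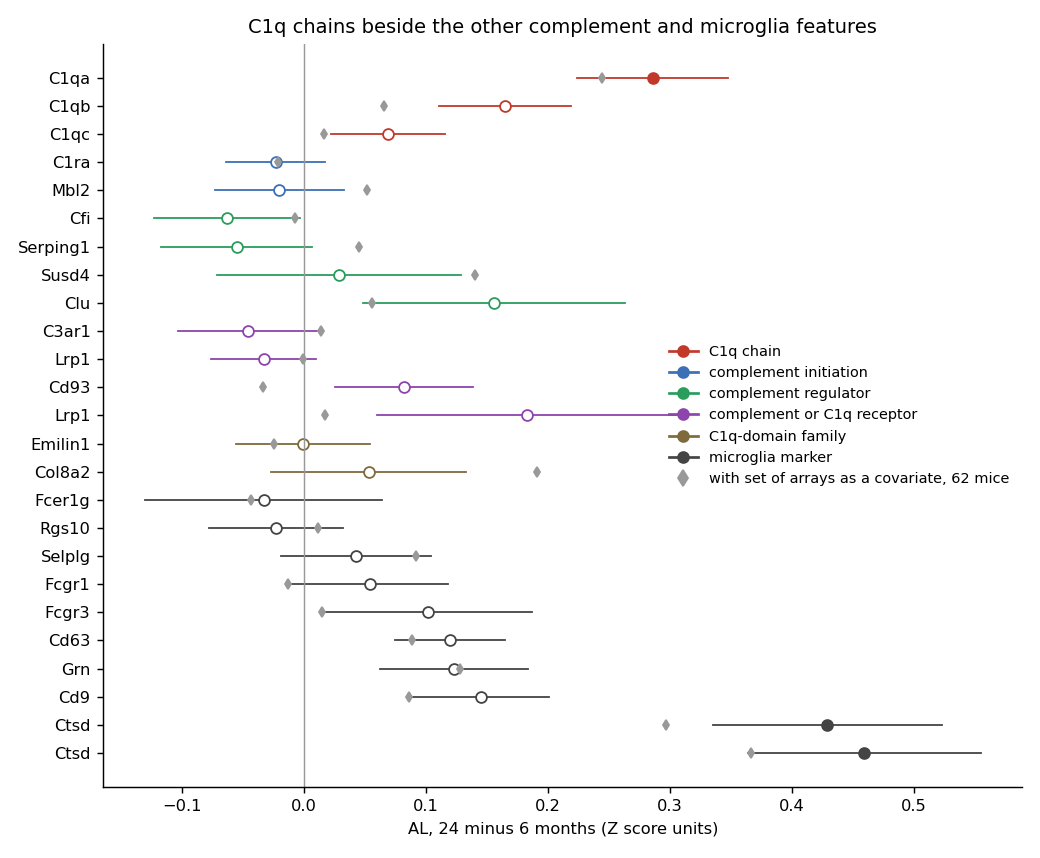
Difference from 6 to 24 months in AL mice, in Z score units, for the C1q chains and every named feature of the complement and microglia lists. Circles with bars are the difference ± SE (filled where the adjusted p passed 0.05) and grey diamonds the same difference with the set of arrays as a covariate in 62 mice. C1qa and the 2 Ctsd features are filled, and the other complement features lie between -0.063 and 0.183.

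Markers of other cell types were counted in the same comparison. None of the 4 border macrophage, 18 blood, 5 astrocyte, 1 oligodendrocyte, 5 neuron and 12 endothelial, mural and meningeal features passed, with medians of 0, 0.089, 0.126, 0.087, 0.056 and 0.027. Set-adjusted, these medians were -0.00305, -0.014, 0.0111, -0.0183, -0.00147 and -0.0119. The mean level of the 18 blood features ranged from -0.213 to 0.913 in AL mice of 6 months and from 0.318 to 1.08 in those of 24 months, and no lymphocyte marker was named on the filter. Over both diets 1 feature of these lists passed, that of Cst3, the protease inhibitor cystatin C of the astrocyte list, which rose by 0.379 (limma adjusted p = 0.0294) and set-adjusted by 0.224 (adjusted p = 0.00384). Mef2a, the only gene measured from a list of transcription factors of myeloid cells, was at 0.107 (limma adjusted p = 0.5). Its expression was not tied to a cell type here.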

How the data were processed

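Total RNA of 65 spinal cords was reverse transcribed with radioactive dCTP (33P per the labels, another isotope in the methods) and hybridized to filter B of the NIA 17K mouse cDNA array. Each deposited score is a Z score made by the authors from the ArrayPro intensities of a filter (mean 0, SD 1 over 8448 features, 2 decimals). Its log base, and any background subtraction, are not given in the sources used here. Precision is limited by the number of arrays.

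Gene names come from the platform annotation, updated by Entrez ID with RefSeq genes (GRCm38.p6), and 4875 features had 1 symbol. Scores were fitted with limma 3.58.1 (R 4.3.3), lmFit and eBayes, with 14 means of stage, diet and sex, both sexes weighted equally and 51 residual degrees of freedom. P-values were adjusted by Benjamini-Hochberg over all features and called below 0.05. The fit was tested on simulated data, with noise drawn independently for each feature and array. That noise holds no sets of arrays and no likeness between near features, so the test does not cover these. Mice were separate animals, no 2 arrays were identical, and replicate numbers follow accession order. The description of 1 array, AL male replicate 2 of 24 months, conflicts with its other labels, which were followed.

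The C1q genes and gene lists were chosen with earlier results of these data known. Named were all C1q features, the 3 genes of each complement list and the 8 microglia genes with the smallest p from 6 to 24 months in AL mice, and the 5 features most like each chain. Alternatives were the set of arrays as a covariate or alone, omitted arrays or mice, quantile normalization, array weights, a mean Z above -1, centring on positions or near features, a replicate block, the compared groups alone, and the rule of the methods (mean above 0, z-ratio of 1.5, unadjusted p) without the ANOVA that closed it.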

Additional observations from a re-analysis of the deposited data

Results flagged for a closer look

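The 3 chains were examined in the 12 groups of 4 or 5 mice each, 36 sets of values in all, for a mouse far from its group. There was 1, and chance alone gives about 1 in 20. The AL male replicate 5 of 16 months had a C1qc Z score of 0.1, the next value in its group of 5 was 0.37, and the gap made up 0.844 of the range of the group.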

How the results depend on the processing

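The calls that changed among the 51 C1q differences were of C1qa and C1qb. The C1qa rise from 6 to 24 months in AL mice (0.286) no longer passed without arrays 31 to 33 (0.23), with the set as a covariate as well (0.244), without the mouse with conflicting labels (0.297), centred on positions (0.2; 0.242 with the set and without arrays 31 to 33), with only the compared groups in the fit (0.286), or within the first (0.188) or second set (0.345). It was not selected by the rule of the methods (0.286), since its mean lay below 0. Leaving out single mice gave 0.23 to 0.317, and 14 of 20 fits did not pass. Over both diets the C1qa rise no longer passed when centred on positions (0.198) or within the first set (0.211). Newly past the threshold was C1qa from 6 to 16 months in AL mice with the set as a covariate (0.281) or centred on near features (0.237). It also passed in 3 of 20 fits without single mice, and all 20 fits, passing or not, gave 0.209 to 0.301. The same step over both diets passed with the set as a covariate (0.196) or in 4 of 38 fits without single mice. All 38 fits, passing or not, gave 0.158 to 0.205. With array weights, C1qb passed from 6 to 24 months in AL mice (0.188) and over both diets (0.157). That setting called 1829 features in AL mice, against 6 in the fit reported and 160 by the rule of the methods without its closing 2-way ANOVA, which was not run. Centred on positions, 0 features were called by limma in AL mice (1073 at an unadjusted p under 0.05). With set adjustment as well, 6 features were called, all of them rises, and C1qa was not among them. A replicate block gave 0.286 for C1qa in AL mice (adjusted p = 0.0202) and changed no call of the 3 chains. Among 867 values under alternatives, 97 had the other sign, in 26 of the 51 differences and for each of the 3 chains, all of them uncalled and between -0.0747 and 0.0748. The causes were not tested.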
